A study of Mus musculus with 18 samples.

Results

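This section concerns the nuclear-coded subunits of the mitochondrial respiratory chain and ATP synthase in mouse embryonic stem cells. Members were every gene named on the array whose symbol begins with Ndufa, Ndufb, Ndufc, Ndufs, Ndufv, Sdha to Sdhd, Uqcr, Cox4i to Cox8 or Atp5, with the Ndufaf assembly factors left out. The array carried 84 such genes on 104 probes, and 83 of them entered the fit among 16022 genes in all. A gene entered if some group of 3 arrays had its brightest probe flagged well above background throughout. Complexes were assigned by the start of the symbol alone, so Ndufa4 and Ndufa4l2 count in complex I and Cox7a2l in complex IV. This put 38 of the 84 genes in complex I, 4 in II, 8 in III, 17 in IV and 17 in V. Of the 84 genes, 81 were well above background on all 18 arrays. The 3 exceptions were Cox6a2, Cox8c and Cox8b.

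Complexes I to IV of the inner mitochondrial membrane pass electrons from NADH and succinate to oxygen and, except for complex II, pump protons, and complex V uses the proton gradient to make ATP. Most subunits are coded in the nucleus, and complexes I, III, IV and V also need subunits coded by mitochondrial DNA, which are not members here. Some nuclear-coded subunits of complex IV exist as isoforms whose expression is limited to muscle, heart, testis or lung, and Ndufa4l2 is a paralogue of Ndufa4 known as a target of hypoxia-inducible factor. Mouse embryonic stem cells use both glycolysis and respiration, and the orphan nuclear receptor Esrrb is known to bind near genes of oxidative metabolism.

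The cells were 129SV mouse embryonic stem cells with the Esrrb gene knocked out and with a Raf-ErT2 fusion, a Raf kinase that the oestrogen receptor ligand 4OHT switches on. All groups share both alterations. The KO-labelled line carried an empty vector and the Rescue-labelled line an Esrrb transgene. All cells were kept in serum with LIF and 2 uM of the GSK3 inhibitor Chir99021, and 24 h before treatment the medium was changed to serum with LIF and 250 nM of the FGF receptor inhibitor PD173074. Each line had 3 arrays titled 0h (untreated), 3 titled 8h and 3 titled 8h2h, where the protocol gives 250 nM 4OHT for 8 h, and for 8h2h a further 2 h of a Mek inhibitor. On the 12 treated arrays the titles and the source names disagree, since the source name that mentions the Mek inhibitor is on the arrays titled 8h and is absent from those titled 8h2h, so groups are called here by their titles. Each line was 1 population, and the labels do not say whether a, b and c were separate cultures, so p-values measure the spread between these arrays, which may be technical.

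Values are log2 of the background-corrected probe brightness minus the 75th percentile of that array, called scaled signal, so 0 is the 75th percentile of the array. A gene was called changed when limma's test, adjusted by Benjamini-Hochberg over all 16022 genes, gave p below 0.05, two-sided. The Esrrb probe went against the labels: it averaged 5.03 ± 0.27, 3.75 ± 0.31 and 3.85 ± 0.54 on KO-labelled arrays titled 0h, 8h and 8h2h, against 4.40 ± 0.41, 1.91 ± 0.21 and 1.62 ± 0.13 on Rescue-labelled arrays (SD, n = 3 each). Every direction between the lines below therefore follows labels that this probe does not bear out, and the labels do not say which part of the gene was deleted. Each slide (a, b or c) held 1 array of every group. The array of replicate b of KO titled 8h2h stood apart: 88.6% of its probes were well above background, against 46.6% to 63.8% on the other 17 arrays, and the counts of called members, and the values at 8h2h that it moves, are given with and without it. The lowest signal among probes well above background was 13.5 to 34.6 units of brightness on KO-labelled arrays and 6.44 to 10.6 units on Rescue-labelled arrays, which bears on the dimmest members. All 8 stem cell markers examined (Pou5f1, Sox2, Nanog, Zfp42, Dppa5a, Utf1, Tdgf1 and Sall4) entered the fit, with a summed log2 level of 8.85 to 9.37 on KO-labelled arrays (9.06 to 9.37 without the high-background array) and 8.76 to 9.44 on Rescue-labelled arrays. Here and below, a summed log2 level is the log2 of the markers' signals added on a linear scale. The brightest markers weigh most in it. Single markers moved further than the sum. Nanog fell at 8h by 3.59 log2 units in the KO-labelled and 4.73 in the Rescue-labelled line and was 1.51, 2.65 and 2.44 log2 units higher on KO-labelled arrays at 0h, 8h and 8h2h, and Zfp42 was 0.96, 2.08 and 2.12 higher there and fell at 8h by 1.55 in the Rescue-labelled line. Their part in the results below was not tested.

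Promoter windows were at hand for 4 of the 8 isoforms, and not for Cox6a2, Ndufa4l2, Cox4i2 and Cox8c. RefSeq windows of 300 bases (250 before and 50 after the annotated start, build GRCm38.p6) were found for 68 of the 84 members, in 73 windows, 4 of them of isoforms. The first 3 below belong to isoforms whose signal differed between groups, and none holds a match to any motif searched, so they are in lower case throughout.
Cox7a1, chr7:30183921-30184220, plus strand: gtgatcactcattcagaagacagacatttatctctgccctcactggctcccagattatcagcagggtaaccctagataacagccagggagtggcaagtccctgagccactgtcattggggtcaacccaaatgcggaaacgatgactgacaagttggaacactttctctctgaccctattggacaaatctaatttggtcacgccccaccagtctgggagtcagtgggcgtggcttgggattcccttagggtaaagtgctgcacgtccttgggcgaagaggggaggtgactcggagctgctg
Cox6b2, chr7:4753045-4753344, minus strand: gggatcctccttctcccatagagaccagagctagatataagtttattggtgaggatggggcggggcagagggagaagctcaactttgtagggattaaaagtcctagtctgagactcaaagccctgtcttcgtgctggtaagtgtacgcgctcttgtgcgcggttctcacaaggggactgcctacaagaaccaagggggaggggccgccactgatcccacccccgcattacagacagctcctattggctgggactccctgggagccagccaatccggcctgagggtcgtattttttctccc
Cox7b2, chr5:71548156-71548455, minus strand: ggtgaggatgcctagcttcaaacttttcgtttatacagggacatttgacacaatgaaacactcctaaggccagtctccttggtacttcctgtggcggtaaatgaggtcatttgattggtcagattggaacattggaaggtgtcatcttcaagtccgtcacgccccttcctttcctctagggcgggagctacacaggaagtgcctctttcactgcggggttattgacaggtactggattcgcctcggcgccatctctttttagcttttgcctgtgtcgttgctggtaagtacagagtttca
The next 4 belong to widespread subunits, chosen to show each of the 3 motifs most often tied to respiratory genes, with the matches in capitals. Cox6b1, the widespread counterpart of Cox6b2, has an ETS match at bases 223 to 229 of its window, Ndufa6 has an NRF1 match at bases 274 to 283, Sdhd has matches to NRF1 (172 to 181), ETS (205 to 211) and ERR (287 to 295), and Atp5g3 has matches to ERR (199 to 207) and NRF1 (263 to 272).
Cox6b1, chr7:30626065-30626364, minus strand: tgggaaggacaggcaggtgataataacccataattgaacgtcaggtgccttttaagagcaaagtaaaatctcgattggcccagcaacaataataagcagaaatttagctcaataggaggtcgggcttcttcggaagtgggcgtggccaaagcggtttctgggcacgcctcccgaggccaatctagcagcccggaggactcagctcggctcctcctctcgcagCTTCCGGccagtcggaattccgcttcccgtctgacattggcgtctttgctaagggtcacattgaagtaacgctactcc
Ndufa6, chr15:82354242-82354541, minus strand: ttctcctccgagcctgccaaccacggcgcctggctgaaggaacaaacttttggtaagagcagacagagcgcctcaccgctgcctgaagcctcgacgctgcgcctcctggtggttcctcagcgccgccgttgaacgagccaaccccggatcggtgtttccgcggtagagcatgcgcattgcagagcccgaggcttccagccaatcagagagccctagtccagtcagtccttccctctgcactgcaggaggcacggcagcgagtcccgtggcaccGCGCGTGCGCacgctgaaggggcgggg
Sdhd, chr9:50603800-50604099, minus strand: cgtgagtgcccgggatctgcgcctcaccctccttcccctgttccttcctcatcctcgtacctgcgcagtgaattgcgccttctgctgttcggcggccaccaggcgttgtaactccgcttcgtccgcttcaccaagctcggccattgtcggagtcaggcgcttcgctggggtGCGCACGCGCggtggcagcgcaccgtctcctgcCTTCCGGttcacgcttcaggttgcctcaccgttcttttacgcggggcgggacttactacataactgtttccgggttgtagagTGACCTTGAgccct
Atp5g3, chr2:73911277-73911576, minus strand: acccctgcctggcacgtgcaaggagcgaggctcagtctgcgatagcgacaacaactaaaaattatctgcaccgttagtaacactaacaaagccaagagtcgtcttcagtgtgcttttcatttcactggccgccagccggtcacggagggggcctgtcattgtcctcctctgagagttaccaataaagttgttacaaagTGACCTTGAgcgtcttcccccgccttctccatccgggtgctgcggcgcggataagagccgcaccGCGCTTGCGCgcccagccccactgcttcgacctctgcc

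The motifs were searched on both strands, and no match in the printed windows overlapped another. The NRF1 motif, a 10-base consensus with 1 free position, was in 24.7% of member windows, against 4.60% of all 32851 windows. The ETS motif (CCGGAAG) was in 23.3% of member windows and 8.86% of all. The motif of estrogen-related receptors, the family that includes Esrrb (ERR, TCAAGGTCA), was in 2.74% of member windows, those of Sdhd and Atp5g3, and in 0.423% of all. The YY1 motif, an 11-base consensus, was in 5.48% of member windows and 0.633% of all, and the AP-1 motif (TGANTCA), to which FOS and JUN proteins bind, was in 9.59% and 7.81%. The windows of the 4 isoforms held none of the 5 motifs. Each motif was also absent from most member windows, so 4 windows cannot show a difference. Their median GC content was 50.8% with 8.5 CpG pairs per window, against 58.3% and 19 in the windows of the other members and 52.7% and 7 in all windows. The NRF1, ETS and YY1 motifs themselves hold CpG pairs, and shares among windows of like CpG content were not compared. A match is only a run of letters and does not show that a factor binds there.

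The isoforms had a wider median range of signal between groups than the other subunits. The 7 isoforms that entered the fit (Cox4i2, Cox6a2, Cox6b2, Cox7a1, Cox7b2, Cox8c and Ndufa4l2) had a median range between the highest and the lowest of the 6 group means of 1.62 log2 units, from 0.22 for Cox4i2 to 4.57 for Cox6a2 (as measured, with its lowest group below background), and 6 of the 7 spanned more than 1. Among the other 76 subunits the median range was 0.37 log2 units, from 0.14 for Ndufa12, a complex I subunit, to 0.84 for Ndufv3, and 0 of 76 spanned more than 1. Over all 16022 genes the median range was 0.77 log2 units and 6176 genes (38.5%) spanned more than 1. A range also grows with the spread between arrays. The dim Cox8c spanned 1.73 log2 units with group SDs of 0.79 to 1.02 and no call. How far brightness and spread account for the split was not tested. By complex, without the isoforms, the median range was 0.37 log2 units in complex I, 0.65 in II, 0.39 in III, 0.40 in IV and 0.34 in V.

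**Figure D1:**
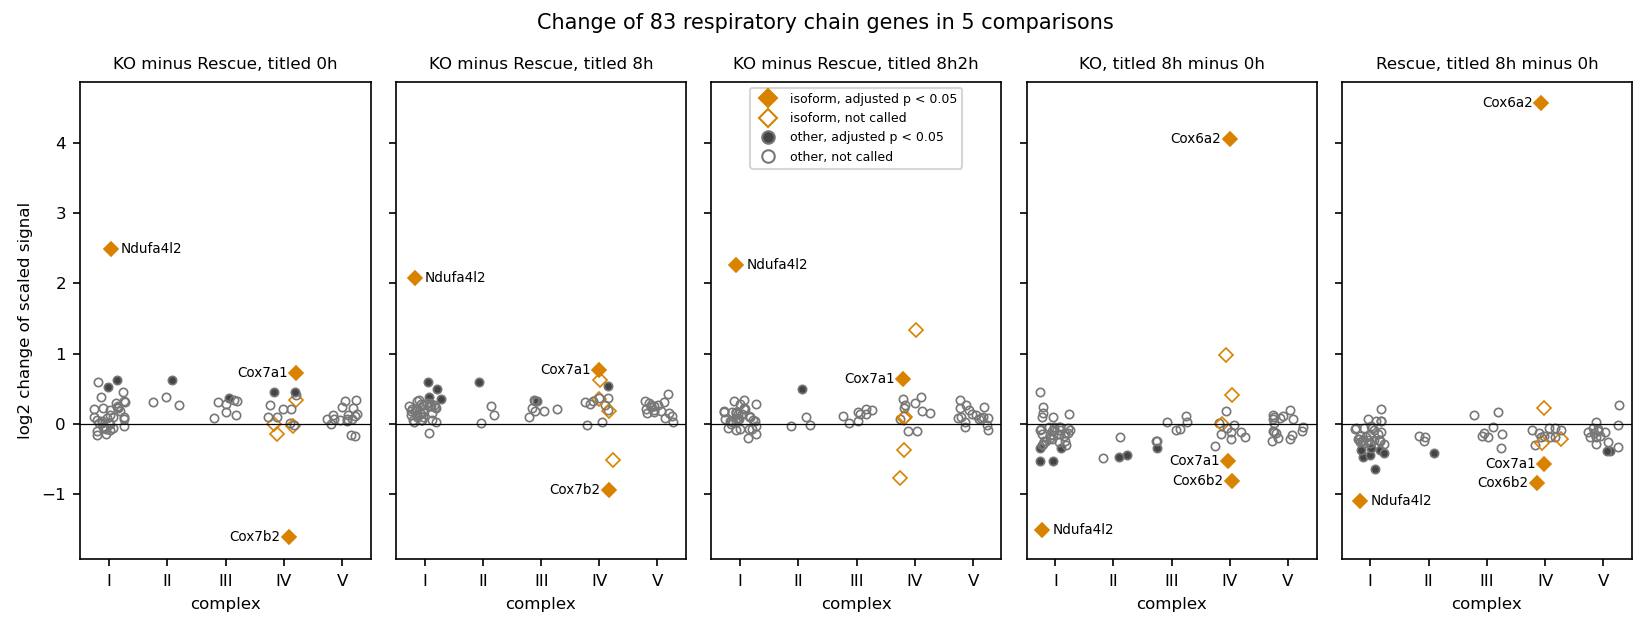
Log2 change of scaled signal of the 83 genes in 5 comparisons (panels), by complex (x axis); orange diamonds are the isoforms, grey circles the other subunits, and filled points passed the test. The isoforms Cox6a2 (8h against 0h, drawn at its fitted value although 5 of the 6 arrays titled 0h were not well above background) and Ndufa4l2 (2.07 to 2.49 log2 units between the lines) lie far from the other subunits, which stay within 1 log2 unit of 0.

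Cox6a2, the heart and skeletal muscle isoform of subunit 6a of cytochrome c oxidase, rose in both lines between the arrays titled 0h and those titled 8h. In the KO-labelled line it read -4.95, -6.20 and -5.14 on slides a, b and c at 0h, -1.86, -1.03 and -1.25 at 8h, and -1.97, -0.80 and -1.07 at 8h2h. In the Rescue-labelled line it read -5.35, -5.95 and -4.98 at 0h, -0.92, -0.75 and -0.91 at 8h, and -0.90, -0.77 and -1.05 at 8h2h. All 12 treated arrays lay above all 6 untreated ones, with no overlap in either line. The probe was well above background on 0 of 3 KO-labelled and 1 of 3 Rescue-labelled arrays at 0h and on all 12 treated arrays, so Cox6a2 entered the fit only through the treated groups, where it is high. In the KO-labelled line its mean at 8h (-1.38) lay 8.35-fold above the lowest signal well above background on the 0h arrays, where its measured mean was -5.43 (limma adjusted p = 1.26e-06 for the fitted change). That floor is the lowest of any probe so flagged, so 8.35-fold is not a strict lower bound for this probe. The fitted rise in the Rescue-labelled line was 4.57 ± 0.35 log2 units (SE, adjusted p = 3.59e-07), against a 0h group where 1 of 3 arrays measured the probe. With normexp background correction, which adds an offset of 50 to every probe's brightness, the rise was 1.71 log2 units in the KO-labelled line, less than 8.35-fold, and 2.15 in the Rescue-labelled line, and both stayed called. Cox6a1, the widespread isoform of the same subunit, changed by -0.12 ± 0.16 and -0.17 ± 0.16 log2 units in the KO-labelled and Rescue-labelled lines and was not called. In bulk RNA, fewer cells of a type and less RNA per cell cannot be told apart.

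Markers of smooth or striated muscle did not rise as a group beside Cox6a2. Of 8 markers 6 entered the fit (Acta2, Tagln, Cnn1, Myl9, Actc1 and Des), while the defining skeletal muscle genes Myog and Ckm were not well above background on all 3 arrays of any group. For 8h against 0h, Des, a muscle intermediate filament gene, rose by 1.20 log2 units in the KO-labelled line (adjusted p = 0.0226), where 1 marker fell, and in the Rescue-labelled line 0 rose and 2 fell. Between the lines 4 of the 6 were lower on KO-labelled arrays at each title and 0 were higher. The summed log2 level of the 6 markers was 4.37 to 4.75 at 8h and 4.66 to 4.91 at 0h in the KO-labelled line, and 5.33 to 5.45 at 8h and 5.82 to 6.09 at 0h in the Rescue-labelled line. The sum of the trophoblast markers moved with treatment and line: 7 of 8 entered the fit (not Elf5), and their summed log2 level was 5.40 to 5.75 at 8h and 3.59 to 4.27 at 0h in the KO-labelled line, and 7.95 to 8.01 at 8h and 7.24 to 7.44 at 0h in the Rescue-labelled line. This sum does not show how many of the 7 moved. Fibroblast markers, 6 of 8 in the fit, summed to 3.89 to 4.41 at 8h and 1.06 to 1.37 at 0h in the KO-labelled line, and to 2.68 to 2.92 and 0.99 to 1.23 in the Rescue-labelled line, with 1 gene called in each, Thy1, which rose by 3.10 and 1.92 log2 units, while the list's median change was -0.19 and -0.04. The 7 primitive endoderm markers summed to 7.04 to 7.96 on KO-labelled arrays (7.26 to 7.96 without the high-background array) and 7.27 to 7.66 on Rescue-labelled arrays. Of these, Gata6 rose at 8h by 1.83 log2 units in the KO-labelled and 1.30 in the Rescue-labelled line, and at 0h Gata4, Gata6 and Foxa2 were lower on KO-labelled arrays (-1.32, -1.81 and -1.79 log2 units) and Lama1 was higher (1.18). The part of other cell types in these results was not tested.

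Ndufa4l2, the hypoxia-linked paralogue of Ndufa4, was higher on KO-labelled than on Rescue-labelled arrays at every title and fell at 8h in both lines. It read 0.75, 0.07 and 0.68 on slides a, b and c at 0h, -0.73, -1.39 and -0.91 at 8h, and -0.53, -0.65 and -0.66 at 8h2h on KO-labelled arrays. On Rescue-labelled arrays it read -1.28, -2.17 and -2.52 at 0h, -2.59, -3.22 and -3.44 at 8h, and -2.04, -3.27 and -3.32 at 8h2h. The 3 KO-labelled arrays lay above the 3 Rescue-labelled arrays at each title. The difference was 2.49 ± 0.37 log2 units at 0h (5.61-fold, SE, limma adjusted p = 0.000326), 2.07 ± 0.37 at 8h (4.21-fold, adjusted p = 0.00108) and 2.26 ± 0.37 at 8h2h (4.80-fold, adjusted p = 0.000561, or 2.28 log2 units without the high-background array). Each of these 3 calls was kept when any 1 of the 18 arrays was left out. For 8h against 0h it fell by 1.51 ± 0.37 log2 units in the KO-labelled line (adjusted p = 0.00724) and by 1.1 ± 0.37 in the Rescue-labelled line (adjusted p = 0.037), where the call was lost without replicate a or b of Rescue 0h or replicate b or c of Rescue 8h, with an adjusted p of up to 0.16. Ndufa4 itself differed between the lines by -0.15 to 0.26 log2 units and was not called. The difference of the 8h change between the lines was -0.41 ± 0.52 log2 units for Ndufa4l2 (adjusted p = 0.868).

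Cox7a1, the heart and muscle isoform of subunit 7a, was also higher on KO-labelled arrays at every title. It read 1.75, 1.16 and 1.74 at 0h, 1.31, 0.74 and 1.02 at 8h, and 1.09, 0.64 and 0.94 at 8h2h on KO-labelled arrays. On Rescue-labelled arrays it read 0.90, 0.83 and 0.75 at 0h, 0.35, 0.25 and 0.16 at 8h, and 0.44, 0.18 and 0.15 at 8h2h. The lines did not overlap at any title. The difference was 0.73 ± 0.18 log2 units at 0h (adjusted p = 0.0109), 0.77 ± 0.18 at 8h (adjusted p = 0.00642) and 0.63 ± 0.18 at 8h2h (adjusted p = 0.0199), with 0.76 at 8h2h once the high-background array was left out. The call at 0h was lost without replicate a or c of KO 0h, and that at 8h2h without replicate a or c of KO 8h2h or b or c of Rescue 8h2h. Between 0h and 8h it fell by 0.53 ± 0.18 log2 units in the KO-labelled line (adjusted p = 0.0408), a call lost under 11 of the 18 arrays left out in turn, and by 0.58 ± 0.18 in the Rescue-labelled line (adjusted p = 0.0249), lost under 4. Cox7a2, its widespread counterpart, differed between the lines by 0.18 to 0.28 log2 units and was not called.

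Cox6b2, the testis isoform of subunit 6b, fell at 8h in both lines by nearly equal amounts. At 8h it read 2.18, 2.01 and 1.70 in the KO-labelled line, against 2.86, 2.76 and 2.74 at 0h. The Rescue-labelled line read 1.77, 1.61 and 1.44 at 8h, against 2.43, 2.29 and 2.62 at 0h. The arrays of the 2 titles did not overlap in either line. The fall was 0.82 ± 0.15 log2 units in the KO-labelled line (adjusted p = 0.0011) and 0.84 ± 0.15 in the Rescue-labelled line (adjusted p = 0.000783), and both calls were kept without any 1 array. At 8h2h it read 2.20, 1.86 and 1.82 on KO-labelled and 2.10, 1.85 and 1.69 on Rescue-labelled arrays. Between the lines it differed by 0.34, 0.36 and 0.08 log2 units at 0h, 8h and 8h2h and was not called, with 0.13 at 8h2h without the high-background array. Cox6b1 changed at 8h by -0.06 ± 0.13 log2 units in each line.

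Cox7b2, the testis isoform of subunit 7b, was the 1 member called lower on KO-labelled arrays. It read -2.13, -2.17 and -3.24 on KO-labelled arrays titled 0h, against -0.68, -0.99 and -1.02 on Rescue-labelled ones. At 8h it read -1.97, -2.01 and -2.33 on KO-labelled and -0.91, -1.28 and -1.31 on Rescue-labelled arrays, and at 8h2h -2.32, -1.62 and -2.57 on KO-labelled and -1.15, -1.40 and -1.65 on Rescue-labelled arrays. The groups overlapped at 8h2h alone, where replicate b of KO, the high-background array, reached the Rescue-labelled range. The difference was -1.62 ± 0.29 log2 units at 0h (adjusted p = 0.00136), kept without any 1 array, and -0.94 ± 0.29 at 8h (adjusted p = 0.0312), lost without any 1 of the 6 arrays titled 8h. At 8h2h it was -0.77 ± 0.29 (adjusted p = 0.0737), while leaving out the high-background array made it -1.04 (adjusted p = 0.0142). Cox7b, its widespread counterpart, differed by 0.10, 0.37 and 0.35 log2 units and was not called.

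The remaining isoforms gave no call. Cox4i2, the lung isoform of subunit 4, lay between -0.61 and 0.41 on the 18 arrays, and its largest change in the comparisons between the lines or between titles was -0.22 ± 0.21 log2 units (95% interval -0.67 to 0.23). Cox8c, a testis isoform of subunit 8, was dim, well above background on 14 of 18 arrays and read -5.59 to -2.30 on KO-labelled and -5.96 to -3.53 on Rescue-labelled arrays. Its highest value came from the high-background array, and its difference at 8h2h was 1.34 ± 0.70 log2 units (95% interval -0.16 to 2.84, adjusted p = 0.202), and 0.83 (adjusted p = 0.458) without that array. Cox8b, the heart and muscle isoform of subunit 8, did not enter the fit: it was well above background on 1 array, the high-background one, at -3.08, against -8.21 to -5.26 on the other 17.

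**Figure D2:**
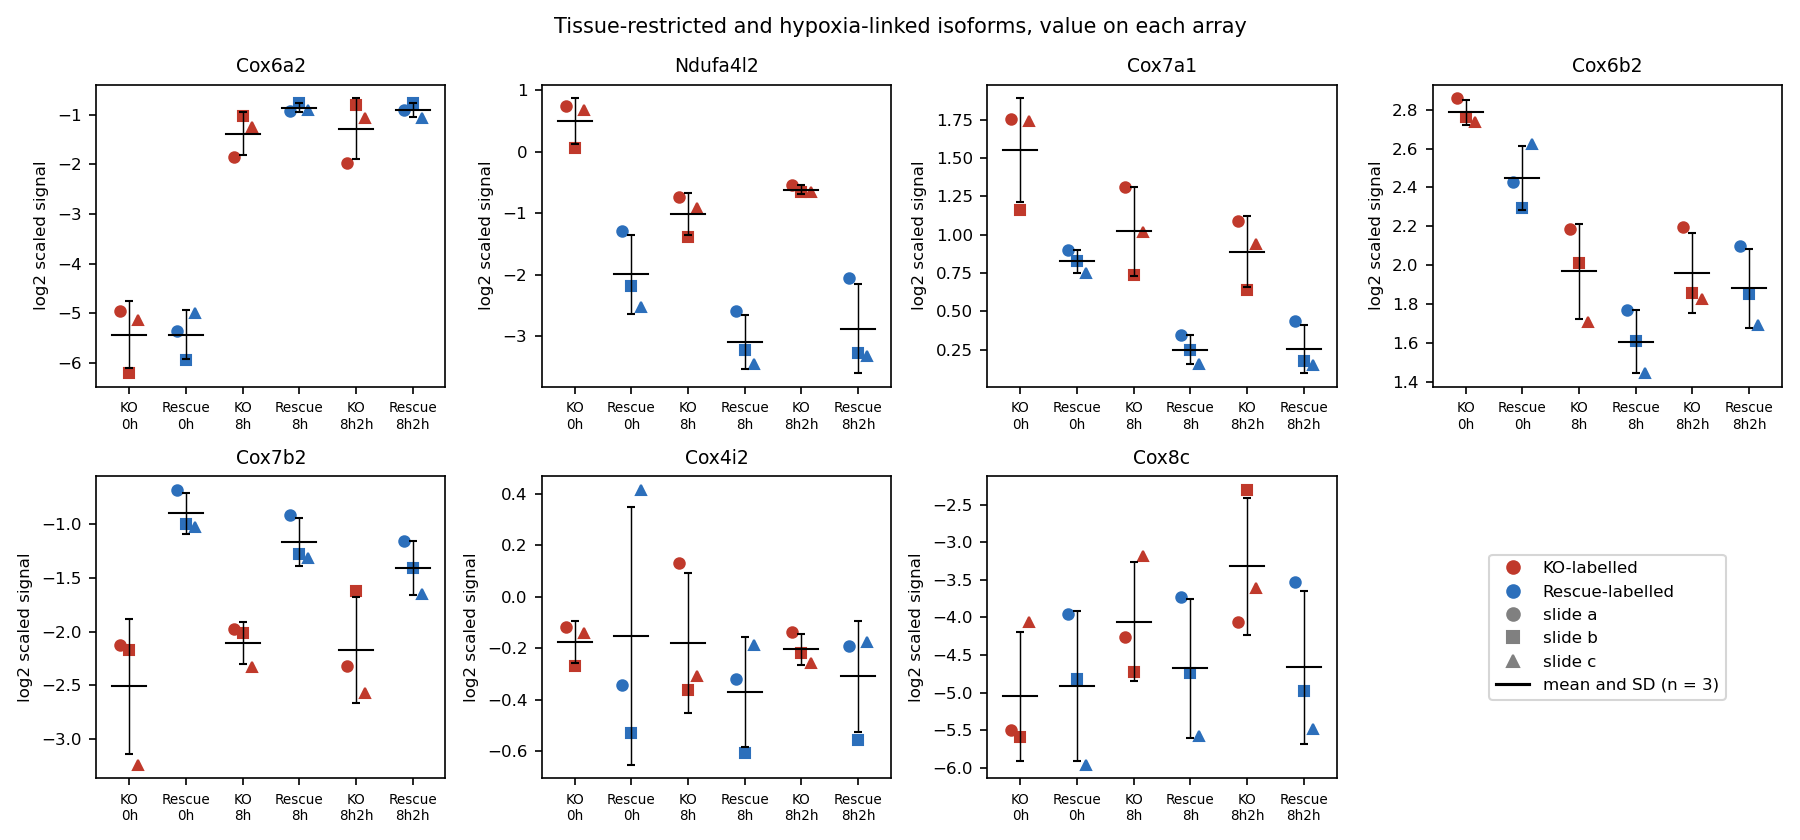
Log2 scaled signal (y axis, its own scale in each panel) of the 7 isoforms on each of the 18 arrays, by group (x axis); red is KO-labelled, blue Rescue-labelled, marker shapes are slides, and bars are the mean and SD (n = 3). Cox6a2 is higher on all 12 treated arrays than on the 6 arrays titled 0h, while Ndufa4l2 and Cox7a1 are higher on KO-labelled and Cox7b2 at 0h and 8h is higher on Rescue-labelled arrays.

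Set beside the widespread gene for the same subunit, the restricted member of a pair carried the calls in the fit of all arrays, except Cox4i2, which had none. Of the 6 pairs (Ndufa4l2 and Ndufa4, Cox4i2 and Cox4i1, Cox6a2 and Cox6a1, Cox6b2 and Cox6b1, Cox7a1 and Cox7a2, Cox7b2 and Cox7b), no widespread gene was called in any of the 9 comparisons in the fit of all arrays. Between the lines and for 8h against 0h, 7.09% to 16.1% of all genes were called in each direction. With 6 genes, 0 calls cannot be told from those shares. Without the high-background array, Ndufa4 was called for 8h against 0h in the KO-labelled line (0.45 log2 units, adjusted p = 0.021) and Cox7b between the lines at 8h2h (0.48 log2 units, adjusted p = 0.043). Cox4i1, the widespread form of subunit 4, differed between the lines by 0.01 to 0.20 log2 units. The differences between members of a pair were not tested, and levels of different probes are not compared here.

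**Figure D3:**
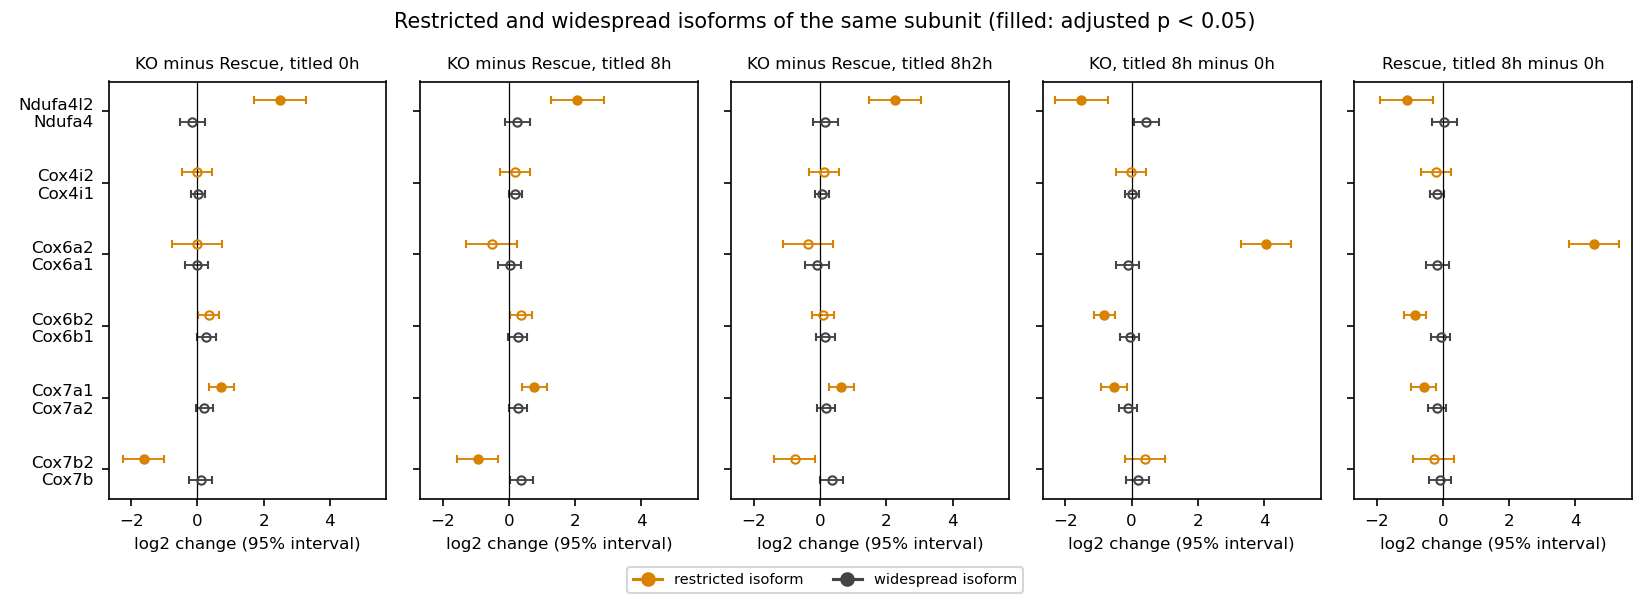
Log2 change (x axis, point and 95% interval) of 6 pairs of genes for the same subunit in 5 comparisons; orange is the restricted and grey the widespread isoform, and filled points passed the test. No grey point is filled, while Ndufa4l2 is filled in every panel.

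Before treatment, the KO-labelled and Rescue-labelled lines differed modestly in the widespread subunits. At 0h, 8 of the 83 members were higher in the KO-labelled line, against 7.09% of all genes tested, and 1 was lower, Cox7b2, against 11.3%. The 8 were Ndufa4l2, Cox7a1, Sdhc (0.62 log2 units), Ndufa6 (0.62), Ndufb10 (0.53), Cox8a (0.46), Cox5a (0.45) and Uqcr10 (0.37). The higher share is 9.64% of the members, close to the background. The median change was 0.12 log2 units over the members and -0.02 over all genes, and 65 of 83 members lay above 0, against 47.8% of all genes. On slides a, b and c the members' median was 0.23, 0.09 and 0.05 log2 units. Without the high-background array, 14 members were called higher (10.1% of all genes) and 1 lower (15.7%), with Ndufb4, Ndufb8, Cox6c, Uqcrb, Uqcr11 and Atp5h added at 0.31 to 0.41 log2 units. The 9 calls became 5 without replicate a of KO 0h, 5 without replicate c of Rescue 0h and 2 without replicate c of KO 0h.

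Sdhc, 1 of the membrane anchors of succinate dehydrogenase, was called between the lines at all 3 titles. At 0h it read 3.63, 3.48 and 3.65 on KO-labelled arrays, against 3.13, 2.95 and 2.81 on Rescue-labelled arrays. At 8h it read 3.58, 3.35 and 3.26 on KO-labelled and 3.02, 2.77 and 2.61 on Rescue-labelled arrays, and at 8h2h 3.39, 2.97 and 3.38 on KO-labelled and 3.03, 2.62 and 2.61 on Rescue-labelled arrays. The lines overlapped at 8h2h alone, through replicate b of KO. The difference was 0.62 ± 0.16 log2 units (adjusted p = 0.0138), 0.60 ± 0.16 (adjusted p = 0.0146) and 0.49 ± 0.16 (adjusted p = 0.0388, or 0.64 log2 units once the high-background array was left out). The calls were lost without replicate c of either line at 0h, and without any of 3 arrays at 8h or 5 at 8h2h.

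The other calls at 0h differed in how evenly the slides gave them. Ndufa6, an accessory subunit of the peripheral arm of complex I, read 5.51, 5.34 and 5.88 on KO-labelled arrays, against 5.01, 5.25 and 4.61 on Rescue-labelled arrays (0.62 ± 0.16 log2 units, adjusted p = 0.012). Its slide differences were 0.50, 0.10 and 1.27, and without replicate c of KO 0h the call was lost (adjusted p = 0.0622). Ndufb10, in the membrane arm of complex I, read 5.55, 5.32 and 5.86 on KO-labelled and 5.18, 5.18 and 4.80 on Rescue-labelled arrays (0.53 ± 0.14 log2 units, adjusted p = 0.019). Cox8a, the smallest subunit of complex IV, read 7.07, 6.95 and 7.34 on KO-labelled and 6.62, 6.81 and 6.55 on Rescue-labelled arrays (0.46 ± 0.13, adjusted p = 0.025). For these 3 genes slide c gave the largest difference and slide b the smallest, and the calls of Ndufb10 and Cox8a were lost without replicate c of either line, that of Cox8a also without replicate a. Replicate c of Rescue and of KO titled 0h also had the lowest 75th percentiles of the 18 arrays, 297 and 369 units of brightness against up to 765.

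Titled 8h, the members' shift between the lines was more even across the slides. Here 9 members were higher in the KO-labelled line (9.16% of all genes) and 1, Cox7b2, was lower (12.4%). The 9 were Ndufa4l2, Cox7a1, Sdhc, Ndufv3 (0.60 log2 units), Cox5a (0.54), Ndufb4 (0.50), Ndufb5 (0.38), Ndufc1 (0.36) and Uqcr10 (0.32). The median change was 0.22 log2 units over the members and -0.01 over all genes, and 79 of 83 members lay above 0, against 49.0% of all genes. The slides gave members' medians of 0.20, 0.20 and 0.25 log2 units. Without the high-background array 16 members were called higher (12.1%) and 1 lower (16.8%), with Atp5g1, Atp5j2, Cox7c, Cox8a, Ndufa3, Ndufa7 and Ndufb8 added. The 10 calls became 4 without replicate b or c of Rescue 8h, 5 without replicate a of KO 8h and 6 without replicate b or c of KO 8h.

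Cox5a, an accessory subunit on the matrix side of complex IV, read 6.86, 6.79 and 7.03 on KO-labelled arrays titled 8h, against 6.30, 6.38 and 6.37 on Rescue-labelled arrays (0.54 ± 0.13 log2 units, adjusted p = 0.00954), and this call was kept without any 1 array. At 0h it read 7.26, 6.87 and 7.20 on KO-labelled and 6.58, 6.66 and 6.73 on Rescue-labelled arrays. Ndufv3, an accessory subunit beside the NADH-binding site of complex I, read 5.23, 5.31 and 5.23 on KO-labelled arrays titled 8h, against 4.83, 4.58 and 4.57 on Rescue-labelled arrays (0.60 ± 0.13 log2 units, adjusted p = 0.00391), also kept. Ndufb4, in the membrane arm of complex I, read 4.79, 4.69 and 4.88 on KO-labelled and 4.32, 4.28 and 4.26 on Rescue-labelled arrays (0.50 ± 0.14, adjusted p = 0.016), a call lost without any of 4 arrays. In all 3 genes the lines did not overlap at 8h. The call of Ndufb5 was lost under 4 and that of Ndufc1 under 11 of the 18 arrays left out in turn. Uqcr10, a small subunit of complex III, had the adjusted p nearest the threshold (0.0499) and lost its call under 14 of the 18 arrays left out in turn.

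Titled 8h2h, the result between the lines turned on 1 array. In the fit of all arrays 3 members were higher in the KO-labelled line (9.55% of all genes) and 0 were lower (12.3%): Ndufa4l2, Cox7a1 and Sdhc, the same 3 genes called at both other titles. With the slide as a block, 5 were higher and 1 was lower. Without replicate b of KO 8h2h, 12 were higher (11.2%) and 1, Cox7b2, was lower (15.6%). The 10 added were Cox5a (0.52 log2 units), Ndufb4 (0.49), Cox7b (0.48), Ndufv3 (0.43), Ndufb5 (0.41), Cox8a (0.40), Ndufa7 (0.40), Atp5g1 (0.36), Uqcr10 (0.33) and Cox7b2 (-1.04). The members' median change was 0.10 log2 units with that array and 0.21 without it, against 0.01 and -0.03 over all genes. On slides a and c it was 0.22 and 0.25 log2 units, and on slide b, which holds that array, -0.15. Calls fell to 1 without replicate a or c of KO 8h2h or b or c of Rescue 8h2h, and 5 were made without replicate c of KO 0h.

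By complex, the medians between the lines at 8h were above 0 in all 5, and the arrays of the lines overlapped in complex II. All 17 subunits of ATP synthase, complex V, lay above 0 at 8h with a median of 0.22 log2 units, and none was called at any title in the fit of all arrays. Dimmer probes of 3 of these genes were called higher on KO-labelled arrays: Atp5o at 0h (0.52 log2 units, adjusted p = 0.00996) and 8h (0.43, adjusted p = 0.0221), Atp5g1 at 0h (0.61, adjusted p = 0.0362) and Atp5h at 8h (0.38, adjusted p = 0.036). In complex II the median was 0.19 log2 units at 8h, and a dimmer probe of Sdhb was called at 0h (0.54, adjusted p = 0.0127). All 8 subunits of complex III lay above 0 at each of the 3 titles, with medians of 0.29, 0.22 and 0.14 log2 units at 0h, 8h and 8h2h, and Uqcr10 was called at 0h and 8h. In complex IV without the isoforms, 9 of 10 lay above 0 at 8h with a median of 0.30 log2 units. In complex I without Ndufa4l2, 36 of 37 lay above 0 at 8h with a median of 0.21, and 4 were called. Among named subunits with no call, Ndufv1, which binds NADH, differed by 0.45 ± 0.18 log2 units at 0h (adjusted p = 0.106), Uqcrfs1, the Rieske iron-sulfur protein, by 0.33 ± 0.18 (adjusted p = 0.234), and Atp5a1, the alpha subunit of ATP synthase, by 0.13 ± 0.13 (adjusted p = 0.54). Replicate c of Rescue 0h was low for Ndufv1 (4.67, against 5.49 and 5.41) and for Uqcrfs1 (3.33, against 4.05 and 4.14). Others without a call differed little or the other way. At 0h Ndufs1 averaged 4.80 on KO-labelled and 4.79 on Rescue-labelled arrays, Cox6a1 7.97 and 7.99, and Atp5g2 6.79 and 6.96. Directions between the lines kept their sign without scaling between arrays, where the members' medians were 0.26, 0.34 and 0.30 log2 units and those of all genes 0.12, 0.11 and 0.21. With the array median in place of the 75th percentile the members' medians were 0.07, 0.13 and -0.68 log2 units and those of all genes -0.07, -0.10 and -0.77, so the sign at 8h2h turned, but it stayed positive (0.17) once the high-background array was left out.

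**Figure D4:**
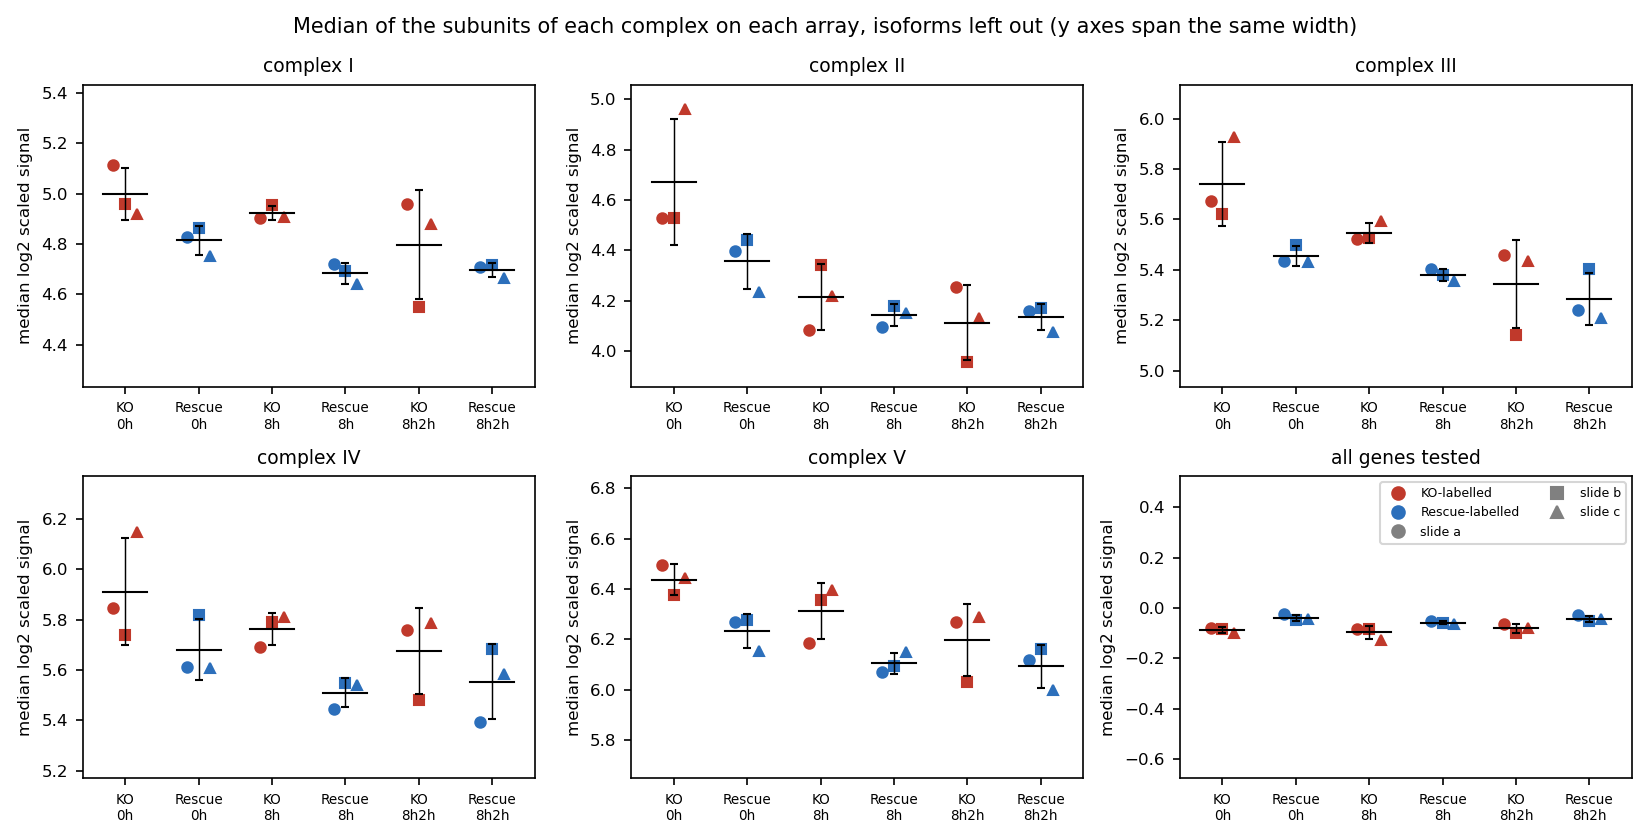
Median log2 scaled signal (y axis, each spanning the same width) of the subunits of each complex without the isoforms, and of all genes tested, on each of the 18 arrays by group (x axis); colours are lines, shapes slides, bars the mean and SD (n = 3). The KO-labelled arrays titled 8h lie above the Rescue-labelled ones in complexes I, III, IV and V and overlap them in complex II, and replicate b of KO titled 8h2h is the lowest of its 3 arrays in each complex.

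In the median over the 76 widespread subunits, the arrays titled 8h separated by line. The KO-labelled arrays read 5.24, 5.23 and 5.30 and the Rescue-labelled arrays 5.0, 5.01 and 5.0. At 0h the medians were 5.50, 5.37 and 5.36 on KO-labelled and 5.20, 5.24 and 5.26 on Rescue-labelled arrays, and at 8h2h 5.32, 4.91 and 5.22 on KO-labelled and 5.03, 5.06 and 4.99 on Rescue-labelled arrays. The lines did not overlap at 0h and 8h, and at 8h2h the high-background array lay below all 3 Rescue-labelled ones.

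Between 0h and 8h, more members fell than rose in both lines. In the KO-labelled line 1 member rose, Cox6a2 (11.9% of all genes), and 10 fell (13.5%): Ndufa4l2, Cox6b2, Cox7a1, Ndufab1 (by 0.53 log2 units), Ndufa6 (0.53), Sdhb (0.47), Sdha (0.45), Uqcr11 (0.34), Ndufa13 (0.34) and Ndufa11 (0.34). In the Rescue-labelled line 1 rose, Cox6a2 (13% of all genes), and 13 fell (16.1%): Ndufa4l2, Cox6b2, Cox7a1, Ndufv3 (by 0.64 log2 units), Ndufa11 (0.47), Ndufab1 (0.44), Ndufs6 (0.42), Sdhb (0.41), Atp5g2 (0.39), Atp5mpl (0.39), Ndufa3 (0.38), Ndufb11 (0.37) and Ndufb5 (0.35). The shares of members that fell, 12% and 15.7%, lie near the background. The lines share no arrays in this comparison, and 7 members were called in both with the same sign, 63.6% of the KO list and 50% of the Rescue list, against 68.8% and 60.1% over all genes called: Cox6a2, Cox6b2, Cox7a1, Ndufa4l2, Ndufa11, Ndufab1 and Sdhb. Median changes were -0.11 log2 units over the members and -0.04 over all genes in the KO-labelled line, and -0.18 and -0.05 in the Rescue-labelled line. Without scaling between arrays the members' medians were 0.21 and 0.15 log2 units and those of all genes 0.28 and 0.29, so the members' sign turned, while relative to all genes they stayed at -0.08 and -0.14. Without the high-background array, which is in neither comparison but shares the fitted spread, 2 rose (14.5%) and 13 fell (16.9%) in the KO-labelled line, and 1 rose (15.9%) and 16 fell (19.4%) in the Rescue-labelled line. The 11 calls of the KO-labelled line became 6 without replicate c of KO 0h or replicate a or c of KO 8h, and the 14 of the Rescue-labelled line became 9 without replicate b of Rescue 0h and 8 without replicate b or c of Rescue 8h.

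Ndufab1 and Ndufa11 fell in both lines with narrow spreads. Ndufab1, the mitochondrial acyl carrier protein that is also a complex I subunit, read 0.43, 0.77 and 0.58 at 8h in the KO-labelled line, against 1.13, 1.09 and 1.16 at 0h (a fall of 0.53 ± 0.10 log2 units, adjusted p = 0.00114). In the Rescue-labelled line it read 0.76, 0.61 and 0.80 at 8h, against 1.16, 1.21 and 1.12 at 0h (0.44 ± 0.10, adjusted p = 0.00392, as a fall). Ndufa11, a membrane arm subunit of complex I, read 3.09, 3.17 and 3.10 at 8h in the KO-labelled line, against 3.42, 3.42 and 3.53 at 0h. In the Rescue-labelled line it read 2.90, 2.98 and 2.93 at 8h, against 3.40, 3.47 and 3.34 at 0h. It fell by 0.34 ± 0.08 log2 units in the KO-labelled line (adjusted p = 0.00791) and by 0.47 ± 0.08 in the Rescue-labelled line (adjusted p = 0.00071). The titles did not overlap for either gene in either line, and all 4 calls were kept without any 1 array.

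Succinate dehydrogenase, complex II, which also works in the tricarboxylic acid cycle, had the lowest median change of the 5 complexes in the KO-labelled line for 8h against 0h, -0.46 log2 units, against -0.21 in the Rescue-labelled line. Sdhb, its iron-sulfur subunit, read 5.03, 5.15 and 5.23 at 8h in the KO-labelled line, against 5.80, 5.55 and 5.47 at 0h (a fall of 0.47 ± 0.13 log2 units, adjusted p = 0.0179), and 4.69, 4.98 and 4.98 at 8h in the Rescue-labelled line, against 5.19, 5.45 and 5.24 at 0h (0.41 ± 0.13, adjusted p = 0.0326, as a fall). Both probes of Sdhb were called in both lines. Sdha, its flavin-binding subunit, fell by 0.45 ± 0.14 log2 units in the KO-labelled line (adjusted p = 0.0352), with 1 of its 2 probes called. The dimmer probe of Sdha did not fall there (0.09 log2 units, limma adjusted p = 0.807). In the Rescue-labelled line the change of Sdha was -0.19 ± 0.14 (adjusted p = 0.392). Replicate c at 0h read 3.56 there, against 4.16 and 4.15 on the other arrays. Sdhd, the other membrane anchor, changed by -0.49 ± 0.17 in the KO-labelled line (adjusted p = 0.0505, or 0.0401 once the high-background array was left out) and by -0.24 ± 0.17 in the Rescue-labelled line. In the KO-labelled line it read 4.44, 4.62 and 4.54 at 8h, against 4.79, 4.75 and 5.53 at 0h, and without replicate c of KO 0h, the highest, the change was -0.24 (adjusted p = 0.211). The calls of Sdhb were lost without replicate a of KO 0h or of KO 8h, and without replicate a of Rescue 8h or replicate b of Rescue 0h. That of Sdha was lost without any of 5 arrays.

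Ndufv3 fell in the Rescue-labelled line, where it read 4.83, 4.58 and 4.57 at 8h, against 5.41, 5.23 and 5.26 at 0h (0.64 ± 0.13 log2 units, adjusted p = 0.00158, as a fall). In the KO-labelled line it read 5.23, 5.31 and 5.23 at 8h, against 5.69, 5.52 and 5.28 at 0h, and was not called. The difference of the 8h change between the lines was 0.40 log2 units for Ndufv3 with an adjusted p of 0.381, so a difference between the lines was not shown. Of the complex V subunits, Atp5g2, a gene for the rotating c ring, and Atp5mpl, a small membrane subunit, fell in the Rescue-labelled line and none was called in the KO-labelled line. Atp5b, the catalytic beta subunit, changed by 0.07 ± 0.16 and 0.03 ± 0.16 log2 units in the KO-labelled and Rescue-labelled lines. Ndufa3 and Atp5mpl kept their calls under 3 and 8 of the 18 arrays left out in turn. Of the 17 members with several probes past the filter, none gave called changes of opposite sign.

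No member was called between the arrays titled 8h2h and those titled 8h. In the KO-labelled line 7.35% of all genes were called, and 5.83% without the high-background array, but 0 of the 83 members were, with 0 at an unadjusted p below 0.05 by limma in the fit of all arrays. In the Rescue-labelled line 2.88% of all genes were called, and 4.48% without that array, again with 0 members called and 0 at an unadjusted p below 0.05. The lowest adjusted p among the members was 0.285 for Uqcrb in the KO-labelled line and 0.623 for Cox6b2 in the Rescue-labelled line (0.27 log2 units, 95% interval -0.05 to 0.60). The members' median change in the KO-labelled line was -0.11 log2 units with that array and -0.01 without it, and in the Rescue-labelled line -0.01. Cox6a2 changed by 0.10 (95% interval -0.66 to 0.86) and -0.05 (-0.81 to 0.71) log2 units in the KO-labelled and Rescue-labelled lines.

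Tests of the difference between the lines in these changes gave no call among the members. For 8h against 0h, 2.28% of all genes differed between the lines (4.71% without the high-background array), and of the members 0 were called and 1, Ndufv3, had an unadjusted p below 0.05. For 8h2h against 8h, 0.0562% of all genes differed, with or without that array, and 0 members had an unadjusted p below 0.05. The intervals are wide for the isoforms: the difference of the 8h change was -0.51 log2 units for Cox6a2 (95% interval -1.59 to 0.56) and 0.68 for Cox7b2 (-0.20 to 1.55).

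Genes that serve the chain without being its subunits were examined by list. Of 46 assembly factors 45 entered the fit. Between the lines 2 were higher and 3 lower at 0h, 4 and 2 at 8h, and 3 and 3 at 8h2h, and for 8h against 0h 3 rose and 7 fell in the KO-labelled line and 1 rose and 8 fell in the Rescue-labelled line. As shares of the 45, the calls between the lines were 4.44% to 8.89% higher and 4.44% to 6.67% lower, against 7.09% to 9.55% and 11.3% to 12.4% of all genes, and the falls at 8h were 15.6% and 17.8% in the KO-labelled and Rescue-labelled lines, near the 13.5% and 16.1% of all genes. At 8h2h, 7 were higher and 2 lower without the high-background array. Cox20, which helps to insert the mitochondrially coded subunit 2 of complex IV, fell by 0.90 ± 0.18 log2 units in the KO-labelled line (adjusted p = 0.0017) and by 0.92 ± 0.18 in the Rescue-labelled line (adjusted p = 0.0013). Sdhaf4, an assembly factor of succinate dehydrogenase, fell by 0.62 and 0.75 log2 units in the KO-labelled and Rescue-labelled lines, and Pet100, a complex IV assembly factor, by 0.41 and 0.55. Sco2, which delivers copper to complex IV, was lower in the KO-labelled line at 0h, 8h and 8h2h, by -0.54 ± 0.09, -0.44 ± 0.09 and -0.56 ± 0.09 log2 units (-0.52 at 8h2h without the high-background array). For 8h2h against 8h Sco2 fell in the KO-labelled line by 0.35 log2 units (-0.26, -0.47 and -0.31 on slides a, b and c). Sdhaf1, another assembly factor, was higher in the KO-labelled line by 0.69 log2 units at 8h and 0.46 at 8h2h. Its slide differences at 8h2h were 0.71, 0.23 and 0.44.

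Among 9 electron carriers and other quinone dehydrogenases, Etfdh, which feeds electrons from fatty acid oxidation to ubiquinone, was lower in the KO-labelled line by -0.28, -0.44 and -0.55 log2 units at the 3 titles and fell at 8h by 0.76 in the KO-labelled and 0.61 in the Rescue-labelled line. Called the other way between the lines were Dhodh, by 0.57 log2 units at 8h, and Cyct, by 1.06 at 8h2h (0.74, 0.90 and 1.52 on slides a, b and c). Of 13 genes of the tricarboxylic acid cycle, Idh3a, the catalytic subunit of isocitrate dehydrogenase, rose at 8h by 0.61 ± 0.16 log2 units in the KO-labelled line (adjusted p = 0.011) and by 0.60 ± 0.16 in the Rescue-labelled line (adjusted p = 0.0094), and it was the 1 gene of this list called there. Of all genes 11.9% and 13% rose in those lines. Between the lines at 8h, Idh3g and Sucla2 were higher in the KO-labelled line by 0.49 and 0.31 log2 units. Among 7 ADP/ATP and phosphate carriers and porins, Slc25a4, a heart and muscle ADP/ATP carrier, was lower in the KO-labelled line by -0.47 log2 units at 8h and -0.56 at 8h2h. Of 20 transcription factors and coactivators of mitochondrial genes 18 entered the fit (not Ppargc1a and Esrrg), and Ppargc1b, a coactivator of the ERR family, was higher in the KO-labelled line by 1.12 ± 0.22 log2 units at 8h (adjusted p = 0.0021) and 0.98 ± 0.22 at 8h2h (adjusted p = 0.0052). Nrf1 was lower there by -0.37 log2 units at 8h, and Tfb1m, a mitochondrial ribosomal RNA methyltransferase, was higher by 0.56. For 8h2h against 8h Mterf3 fell in the KO-labelled line by 0.45 log2 units (-0.26, -0.58 and -0.51 on slides a, b and c). Of 77 mitochondrial ribosomal proteins, 5 were higher and 0 lower in the KO-labelled line at 0h, 4 and 2 at 8h, and 2 and 3 at 8h2h, and for 8h against 0h 2 rose and 8 fell in the KO-labelled line and 3 rose and 13 fell in the Rescue-labelled line. The shares called higher between the lines, 2.60% to 6.49%, and called lower, 0% to 3.90%, lie below those of all genes, and the shares that fell at 8h, 10.4% and 16.9% in the KO-labelled and Rescue-labelled lines, lie near them. Leaving out the high-background array gave 8 higher and 0 lower at 0h, 8 and 2 at 8h, and 6 and 2 at 8h2h. Without it the values at 8h2h were -0.49 log2 units for Etfdh, -0.54 for Slc25a4 and 1.13 for Ppargc1b, each still called.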

How the data were processed

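RNA of 18 samples of mouse embryonic stem cells was hybridised to 1-colour Agilent arrays, 3 per group and 1 slide per replicate letter. Per the file headers, the authors' scanner files were made with Agilent Feature Extraction 12.0.1.1 and give the processed signal, an intensity already corrected for background. The deposited table of values held the same intensity at all 62976 spots of each array. Other columns used, per the file headers, are flags for spots well above background and for outliers, as other values of 0 or 1. Arrays give no read depth, so their number (3 per group) limits the precision.

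From these, log2 of the processed signal minus each array's 75th percentile over its non-control spots was computed. Probes were named through their RefSeq accession, and 32994 of 56605 had 1 symbol. Outlier spots left out 107 named probes, and the brightest probe stood for a gene. Group means of all 18 arrays were fitted with limma 3.58.1 in R 4.3.3 (lmFit and eBayes, two-sided, Benjamini-Hochberg over 16022 genes) in 9 comparisons, checked on simulated data. Summaries were made in Python 3.11.15. The preset rule for naming genes was, in each comparison, up to 8 called members of largest change in each direction, preset subunits and isoforms whatever their values, the largest and smallest range per complex, and up to 4 called genes of each side list. The text does not print every such gene in every comparison. It gives no values for Uqcrc1 and Cox7a2l, and leaves out called genes of the side lists such as Tmem126b and Polg. A preset list of core subunits is not reported here. Called members beyond the 8, called dimmer probes and added subunits called without the high-background array were named after their values were seen. Levels were not ranked across probes. The members and lists were chosen with earlier results of these data known. The alternatives were other scalings, a background correction (normexp with offset 50), filters, probe rules, the slide as a block, fits of only the arrays compared, and leaving out each array.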

Additional observations from a re-analysis of the deposited data

Results flagged for a closer look

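Mrps6, a protein of the small mitochondrial ribosomal subunit and no member of the respiratory chain, was the 1 gene of the side lists whose 8h change differed between the lines by limma's test of that difference. On slides a, b and c it read 3.68, 3.88 and 3.74 at 8h in the KO-labelled line, against 3.81, 3.63 and 3.78 at 0h. In the Rescue-labelled line it read 4.13, 4.33 and 4.36 at 8h, against 3.29, 3.50 and 3.17 at 0h. The Rescue-labelled line rose by 0.96 ± 0.12 log2 units (SE, adjusted p = 3.5e-05), and the change in the KO-labelled line was 0.02 log2 units and not called. The difference of the changes, KO minus Rescue, was -0.93 ± 0.17 log2 units (adjusted p = 0.01).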

How the results depend on the processing

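Counts of called members are given in the order KO against Rescue at 0h, 8h and 8h2h, then 8h against 0h in the KO-labelled and the Rescue-labelled line. As reported they were 9, 10, 3, 11 and 14. The other 4 comparisons gave 0 called members under each alternative run. Without scaling between arrays the counts were 1, 1, 1, 1 and 1, with the array median in place of the 75th percentile 2, 1, 1, 1 and 1, and with normexp background correction 5, 6, 2, 4 and 7. Quantile normalization gave 11, 9, 14, 15 and 15, no filter on dim probes 8, 8, 5, 7 and 9, and a filter asking for all 18 arrays 9, 12, 4, 12 and 13. The mean of a gene's probes gave 10, 11, 3, 10 and 12, and the authors' table of values the same counts as reported. With only the arrays compared in the fit the counts were 3, 20, 1, 4 and 7. The slide as a replicate block gave 10, 12, 6, 14 and 15, which takes the count at 8h2h from 3 to 6. Each slide held 1 array of every group, and 28 of 45 pairs of arrays sharing a slide had deviations correlated above 0.1 (median 0.141, lowest -0.058), against 6 of 90 pairs on different slides (median -0.0613). Arrays sharing a slide thus tended to deviate together, though 17 of the 45 pairs stayed at or below 0.1. The fit reported above leaves the slide out. The labels do not say whether the letters also pair cultures. Leaving out 1 array at a time gave 2 to 15, 4 to 17, 1 to 13, 6 to 15 and 8 to 17 called members. Chosen after seeing the data, the array median with the high-background array also left out gave 10, 7, 10, 17 and 17, and no scaling without that array 2, 1, 1, 1 and 1. Beyond these, the cause of the changes was not tested. Over 47 changes of single genes and 1408 alternatives, 1073 kept direction and call, 333 lost the call and 2 turned sign, both at 8h2h with array median scaling: Cox7a1 at -0.15 (adjusted p = 0.816) and Sdhc at -0.28 (adjusted p = 0.643). Without the high-background array they were 0.72 and 0.60 under that scaling. The calls of Ndufa4l2 between the lines at 0h and 8h were kept under all 30 alternatives run. These counts of kept calls include the authors' table of values, which holds the same intensities, so its outcome was fixed. They also include fits without an array outside the comparison, which leave the estimate unchanged and alter only the shared spread. The calls of Cox6a2 in both lines were kept under the 29 alternatives where it entered the fit. In the runs with a filter it entered through the treated groups, where it is high, so calls kept there add no support of their own. The filter asking for all 18 arrays left Cox6a2 out, so its calls were not tried under that filter. Normexp with its offset lowered Cox6a2 to 1.71 and 2.15 log2 units in the KO-labelled and Rescue-labelled lines. Probe brightness limits the isoforms most, since Cox6a2 at 0h and Cox8c lay near background.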
